A study of Arabidopsis thaliana with 6 samples.

Results

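Phosphate starvation response genes are the genes that plants switch on when inorganic phosphate runs short. They were taken as 10 named genes of the 27655 in the table, matched by identifier and chosen with earlier results of these data known: SPX1, SPX2, SPX3, PHT1;1, PHT1;4, PAP17 and PS2 for sensing, uptake and release of phosphate, and MGD3, SQD1 and SQD2 for the exchange of phospholipids against lipids without phosphorus. RNA was sequenced from whole Arabidopsis thaliana seedlings aged 10 days, kept at 22 °C under days of 16 h light and 8 h dark. The 6 libraries fall into 3 of wild type Col and 3 of h3.3ko;HTR5, a line named after a knockout of the histone variant H3.3 and the H3.3 gene HTR5, and called the line in what follows. How that line was made, what phosphate supply the plants had and whether replicates were separate cultures is nowhere given in the sources used here. The p-values therefore cover the spread between libraries, which may be technical.

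In plants with enough phosphate, SPX proteins bound to inositol pyrophosphates hold back PHR1 and its relatives, the transcription factors of the response. When phosphate is scarce the factors are released, bind P1BS elements near their targets, and raise genes for high-affinity PHT1 transporters, acid phosphatases and lipid exchange. In that exchange sulfolipid and galactolipid take the place of membrane phospholipids, which frees phosphate.

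The P1BS element reads GNATATNC, a pattern that is its own reverse complement and so is the same on both strands. A search of the 1000 bases before each annotated gene start, in the RefSeq TAIR10.1 genome, found it at 5 of the 10 genes, against 20.4% of 18925 tested nuclear genes. Within 250 bases it was found at 2 of the 10, SPX3 and PS2, against 5.48%. The sets are unlike, since the 10 include SPX3 and MGD3, which were too low to be tested. The matches are shown because they are the letters the PHR1 family is known to bind. They are given 5′ to 3′ on the strand of the gene, with the match in capitals, and none of the stretches lies in an annotated gene. They lie at chr5:6801521-6801580 for SPX1 (plus strand), at chr2:18606171-18606230 and chr2:18606294-18606353 for SPX3 (plus), at chr5:17402893-17402970 for PHT1;1 (minus), at chr1:27466917-27466976 and chr1:27466532-27466591 for PS2 (minus), and at chr5:90424-90483 for SQD2 (minus).
SPX1: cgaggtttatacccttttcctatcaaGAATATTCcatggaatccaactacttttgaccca
SPX3, farther match: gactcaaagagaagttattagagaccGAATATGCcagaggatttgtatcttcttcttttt
SPX3, nearer match: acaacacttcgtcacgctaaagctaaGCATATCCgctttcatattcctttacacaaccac
PHT1;1: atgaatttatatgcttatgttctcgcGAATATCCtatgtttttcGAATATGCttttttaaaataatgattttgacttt
PS2, farther match: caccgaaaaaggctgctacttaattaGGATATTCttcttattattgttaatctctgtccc
PS2, nearer match: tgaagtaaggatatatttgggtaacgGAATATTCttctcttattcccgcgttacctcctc
SQD2: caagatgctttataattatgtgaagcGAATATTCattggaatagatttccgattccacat
The SPX1 match began 735 bases before the gene start and the SQD2 match 340 bases before it. PHT1;1 had matches beginning 786 and 768 bases before its start, which share 1 stretch. SPX2, PHT1;4, PAP17, MGD3 and SQD1 had no such letters in the 1000 bases searched. A match is a description of the letters and not a measured binding site.

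Libraries held 13792031 to 14498093 reads, recovered from the deposited TPM (reads per gene length, brought to the same total in each library). As a check of the labels, the H3.3 genes HTR8, HTR4 and HTR5 had 289 to 323, 309 to 331 and 403 to 423 TPM in wild type, against 3.19 to 5.20, 148 to 155 and 290 to 298 TPM in the line. Of 19013 genes tested with limma, 12.0% differed between the genotypes at an adjusted p under 0.05, with 3.70% higher in the line and 8.32% lower. At an unadjusted limma p under 0.05, 3395 of the 19013 were lower and 1698 higher. A model of the recovered reads (voom) gave 1912 lower and 987 higher of 18920 genes. These shares and counts are the background for the counts that follow.

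Of the 10 phosphate starvation genes, 8 reached a mean of 1 TPM and were tested. SPX1, PHT1;4, PAP17 and PS2 fell in the line, SQD2 rose, and SPX2, PHT1;1 and SQD1 did not pass the test. The genes that fell sense, take up or release phosphate, and the gene that rose makes sulfolipid. Of these 5 genes, SPX1, PS2 and SQD2 have a P1BS match shown above, as have PHT1;1, which did not pass, and SPX3, which was not tested. The median log2 fold change was -0.61 over the 6 tested genes of sensing, uptake and release, beside -0.03 over all 19013 genes. Over the 2 tested genes of lipid exchange, SQD1 and SQD2, it was 0.25. MGD3, too low to be tested, had means of 0.53 TPM in wild type and 0.28 TPM in the line, with overlapping groups. Among other tested genes of the lists below, the medians were -0.02 for regulators, -0.04 for transport, -0.33 for release and -0.01 for lipid exchange. In 5 of the 8 tested members the libraries of the genotypes did not overlap (4 lower, 1 higher), as was so for 31.2% of all tested genes (20.4% lower, 10.8% higher).

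**Figure D1:**
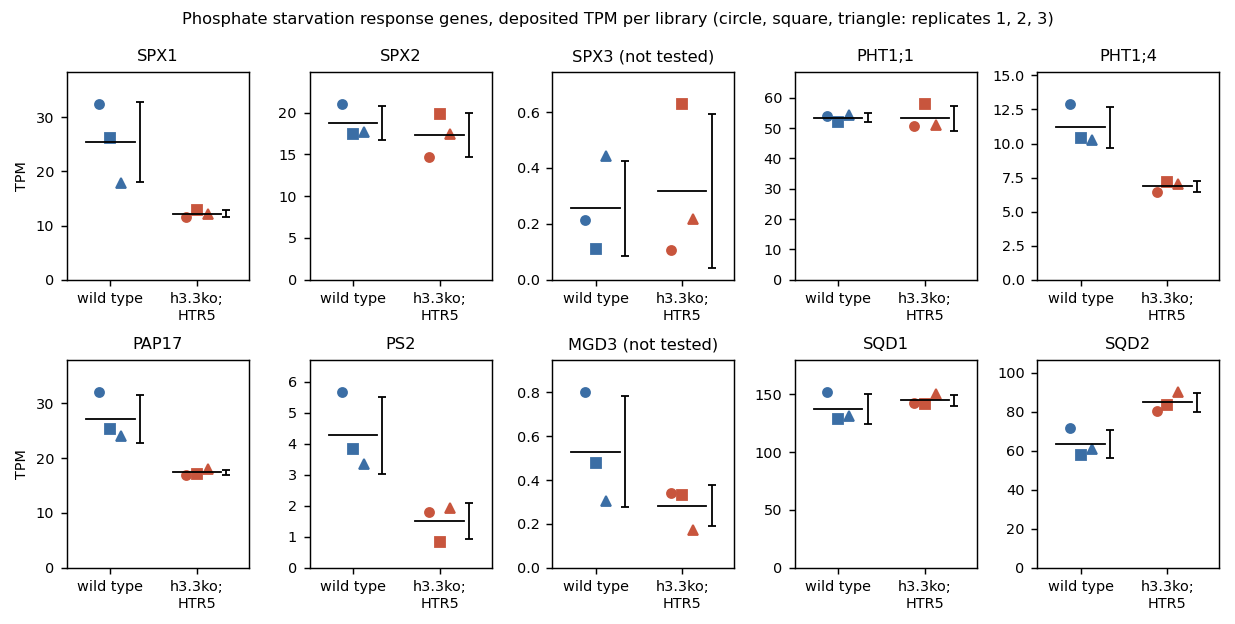
Deposited TPM (vertical axes, each from 0) of the 10 phosphate starvation genes in 3 wild type and 3 h3.3ko;HTR5 libraries. Symbols are replicates, horizontal lines are means and bars are ± 1 SD. The genotypes do not overlap for SPX1, PHT1;4, PAP17, PS2 and SQD2.

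SPX1 (AT5G20150, chromosome 5, 6802282 to 6803655, plus strand, TAIR10.1) encodes an SPX-domain protein that binds PHR1 and is itself induced by phosphate shortage. It stood at 32.5, 26.2 and 17.8 TPM in the wild type libraries (replicates 1 to 3 in order, here and throughout), against 11.5, 12.9 and 12.2 TPM in those of the line. All 3 libraries of the line were below all wild type libraries, and the wild type libraries spread far more widely, with replicate 3 the lowest of them. The means were 25.5 ± 7.39 and 12.2 ± 0.70 TPM (SD, n = 3), 2.09-fold lower. The log2 fold change on the log2(TPM + 1) scale, which understates changes of low genes, was -0.96 ± 0.17 SE (limma adjusted p = 0.00553). The read numbers behind these values were 289, 227 and 153 in wild type and 102, 117 and 106 in the line.

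SPX2 (AT2G26660, chromosome 2, 11338752 to 11340950, plus strand), a close relative that also binds PHR1, stood at 21.1, 17.4 and 17.7 TPM in wild type, against 14.7, 19.9 and 17.4 TPM in the line. The genotypes overlapped, and the log2 fold change was -0.11 with a 95% interval from -0.36 to 0.14 (limma adjusted p = 0.583). That interval does not reach the SPX1 estimate of -0.96, and the difference between the responses of SPX1 and SPX2 was not tested. SPX3 (AT2G45130, chromosome 2, 18606410 to 18607853, plus strand), a family member known for its strong induction by phosphate shortage, was near the limit of detection in every library. It had 2, 1 and 4 reads in wild type and 1, 6 and 2 reads in the line, or 0.11 to 0.44 TPM and 0.11 to 0.63 TPM. No difference in SPX3 was detectable at this depth.

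Of the phosphate transporters of the plasma membrane, PHT1;4 fell and PHT1;1 did not pass the test. PHT1;4 (AT2G38940, chromosome 2, 16257157 to 16260253, plus strand), a high-affinity transporter, stood at 12.9, 10.4 and 10.3 TPM in wild type, against 6.41, 7.19 and 7.01 TPM in the line. Every library of the line lay below every wild type library, and the group means were 1.63-fold apart (log2 fold change -0.63 ± 0.11 SE, limma adjusted p = 0.00521). PHT1;1 (AT5G43350, chromosome 5, 17399769 to 17402158, minus strand), a transporter of the same family, stood at 54.1, 52.0 and 54.5 TPM in wild type, against 50.6, 58.1 and 51.1 TPM in the line. The wild type range lay inside that of the line, and the log2 fold change was -0.01 with a 95% interval from -0.15 to 0.13 (limma adjusted p = 0.953). Its sign turned with the scaling and with the libraries used. Of the 50-base exon windows of PHT1;1, 42.5% occur elsewhere in the genome and 42.0% in its relative PHT1;2. How reads from these windows were counted is not given, so the level of PHT1;1 is uncertain. PHT1;2, with 45.6% of its own windows found elsewhere, was listed at 0 to 0.56 TPM, from 0 to 8 reads per library. PHT1;1 had 771 to 916 reads per library, so few reads were assigned to PHT1;2. The PHT1;4 windows had no second place.

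PHT1 transporters act mainly in roots, and in whole seedlings fewer root cells and less RNA per root cell cannot be told apart. None of the 10 tested root markers of 11 passed the test (limma), with 3 higher and 1 lower at an unadjusted p under 0.05 and 1 higher with voom, and the summed level of the 11 was 167 to 189 TPM in wild type and 159 to 191 TPM in h3.3ko;HTR5, with ESB1 near 0 in all libraries. The 6 shoot markers summed to 64315 to 68921 TPM in wild type and to 70108 to 73043 TPM in h3.3ko;HTR5, with no overlap. Most of these sums came from RBCS1A and LHCB1.3, which did not pass (limma adjusted p = 0.0954 and 0.213). Of the exon windows of LHCB1.3 and LHCB2.1, 17.0% and 23.5% occur elsewhere in the genome. Of the 6 shoot markers 2, CA1 and RCA, rose with limma, and voom gave 4 higher. CA1 passed in 14 of 15 alternatives (adjusted p up to 0.0589) and RCA in 10 of 15 (up to 0.137), and after quantile normalization the log2 fold change of RCA turned to -0.07. The part of root and shoot shares in the phosphate results was not tested.

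PAP17 and PS2, which release phosphate from organic compounds and from pyrophosphate, fell. PAP17 (AT3G17790, chromosome 3, 6089381 to 6091231, plus strand), a purple acid phosphatase induced by phosphate shortage and by senescence, stood at 32.2, 25.2 and 24.1 TPM in wild type, against 17.0, 17.2 and 18.0 TPM in the line. The libraries of the line lay close together below the wild type range (log2 fold change -0.60 ± 0.10 SE, limma adjusted p = 0.00432). The last 122 bases of PAP17, all exonic, overlap AT3G17800 on the other strand, which was at 198 to 220 TPM in wild type and 216 to 223 TPM in the line. Reads from the overlap cannot be told apart, since the strand setting is not given.

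PS2 (AT1G73010, chromosome 1, 27464528 to 27466348, minus strand) encodes a pyrophosphatase that is among the most strongly induced transcripts in phosphate shortage. It stood at 5.69, 3.83 and 3.33 TPM in wild type, against 1.79, 0.83 and 1.91 TPM in the line, from 67, 44 and 38 reads and 21, 10 and 22 reads. The groups did not overlap, and replicate 2 was the lowest library of the line. The means were 2.83-fold apart (log2 fold change -1.08 ± 0.22 SE, limma adjusted p = 0.0117). With a pseudocount of 0.1 the log2 fold change was -1.49, and in a model of the recovered reads (voom) it was -1.53.

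Of the genes of lipid exchange, SQD2 rose and SQD1 did not pass the test. SQD1 (AT4G33030, chromosome 4, 15935373 to 15937833, plus strand) makes UDP-sulfoquinovose, the head group donor of sulfolipid. It stood at 152, 128 and 132 TPM in wild type, against 142, 142 and 150.3 TPM in the line, so the wild type range enclosed the other group. Its log2 fold change was 0.08 with a 95% interval from -0.07 to 0.22 (limma adjusted p = 0.484).

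SQD2 (AT5G01220, chromosome 5, 86543 to 90117, minus strand), the transferase of the last step of sulfolipid synthesis, stood at 71.5, 58.0 and 60.8 TPM in wild type. In the line it stood at 80.4, 83.4 and 90.3 TPM, above every wild type library. The means were 63.4 ± 7.11 and 84.7 ± 5.07 TPM (SD, n = 3), a rise of 33.5% (log2 fold change 0.42 ± 0.08 SE, limma adjusted p = 0.00794).

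MGD3 (AT2G11810, chromosome 2, 4743162 to 4746813, plus strand), a galactolipid synthase induced by phosphate shortage, was too low to be tested. It stood at 0.80, 0.48 and 0.31 TPM in wild type, against 0.34, 0.33 and 0.17 TPM in the line, from 37 reads and 20 reads in all. The groups overlapped, and with no filter on low values it did not pass either (limma adjusted p = 0.322).

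**Figure D2:**
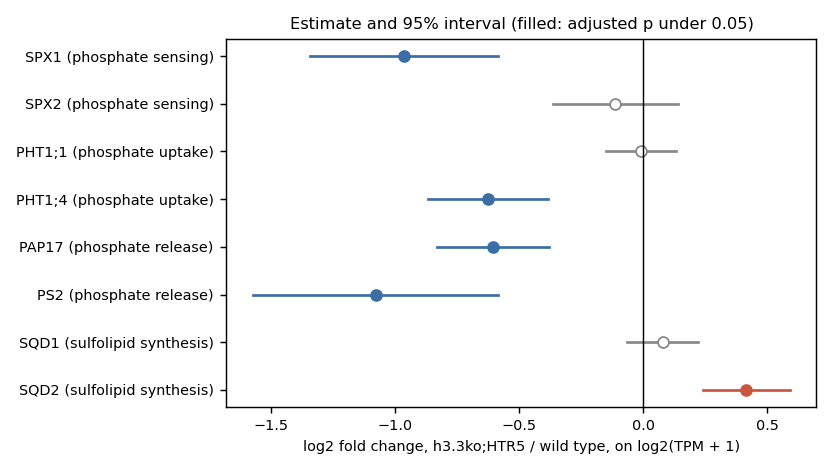
Log2 fold change between h3.3ko;HTR5 and wild type on log2(TPM + 1) (horizontal axis) for the 8 tested phosphate starvation genes, with 95% intervals from limma. Filled points passed the test: SPX1, PHT1;4, PAP17 and PS2 lie left of 0 and SQD2 right of it, while the intervals of SPX2, PHT1;1 and SQD1 span 0.

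In wild type the members spanned a wide range of levels per gene length. SQD1 was highest with a mean of 137 TPM, followed by SQD2 at 63.4 TPM and PHT1;1 at 53.5 TPM. PAP17, SPX1 and SPX2 came next at 27.2, 25.5 and 18.7 TPM, and the SPX1 libraries overlapped those of both its neighbours in that order. PHT1;4, PS2, MGD3 and SPX3 followed at 11.2, 4.28, 0.53 and 0.26 TPM, the last 2 overlapping each other. The deposited values follow the gene span with introns, and on exon length SPX2 (24.3 TPM) stood before PAP17 (23.1 TPM) and SPX1 (22.1 TPM). In the line the deposited mean of SPX1, 12.2 TPM, lay below those of PAP17 (17.4 TPM) and SPX2 (17.3 TPM), and the SPX1 libraries overlapped neither.

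Wild type replicate 1 was the highest wild type library in 7 of the 8 tested members, those that fell and SQD2 alike, against 43.8% of all tested genes. It was also the highest in 34 of the 50 other tested genes of the phosphate lists below (68.0%). Without that library SPX1, PHT1;4, PAP17 and PS2 fell by 0.78, 0.53, 0.48 and 0.89 on the log2 scale and SQD2 rose by 0.50, and all 5 passed the test (limma adjusted p = 0.00142 to 0.0359).

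Other genes of phosphate sensing, transport, release, lipid exchange and the local root response were taken from 5 lists. These hold 66 genes besides the members, of which 50 were tested. They include genes that restrain the response, such as SPX4 and PHO2, and which list genes are induced by phosphate shortage was not assessed. Of the 50, 6 fell and none rose (limma). With voom 8 were lower and 0 higher, beside 1912 lower and 987 higher of 18920 genes. At an unadjusted limma p under 0.05 there were 11 lower and 2 higher, beside 3395 lower and 1698 higher of all 19013. The 6 genes that fell (limma) were G3PP1, PAP10 and PAP12 of the phosphate release list, ZAT6 and AT4 among the regulators, and GDPD1 of lipid exchange. The 6 are 12.0% of the 50, beside 8.32% lower among all tested genes, and none rose, beside 3.70%, while the median log2 fold change of the 50 was -0.03.

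In the phosphate release list besides PAP17 and PS2, 3 of 9 tested genes fell and the median log2 fold change was -0.33. That list is wider than its name, since it also holds the permease gene G3PP1 and the kinase genes PPCK1 and PPCK2. G3PP1, a glycerol-3-phosphate permease gene induced by phosphate shortage, stood at 67.1, 69.8 and 64.5 TPM in wild type, against 42.8, 46.1 and 49.9 TPM in the line (log2 fold change -0.53 ± 0.07 SE, limma adjusted p = 0.000893). PAP10, a purple acid phosphatase bound to the root surface, stood at 41.2, 36.5 and 33.2 TPM and at 26.6, 26.1 and 26.8 TPM (limma adjusted p = 0.00476), and shares 177 bases with AT2G06625 on the other strand. PAP12, a secreted purple acid phosphatase, stood at 41.5, 36.5 and 35.7 TPM and at 27.8, 31.7 and 28.5 TPM (limma adjusted p = 0.0148). In all 3 the genotypes did not overlap, and the PAP12 call was lost without replicate 1 or 3 of the line (adjusted p = 0.0534 and 0.0609). PAP26, the main acid phosphatase of the vacuole, had means of 106 ± 0.90 and 95.6 ± 2.15 TPM and did not pass (limma adjusted p = 0.0651). PPCK2, a kinase of phosphoenolpyruvate carboxylase, stood at 3.86, 2.99 and 2.78 TPM in wild type, against 3.17, 6.64 and 4.91 TPM in the line. Its groups overlapped and it did not pass (log2 fold change 0.45, limma adjusted p = 0.195). Without replicate 1 of the line PPCK2 was higher, by 0.68 (limma adjusted p = 0.0419). The related kinase gene PPCK1 stood at 19.9, 16.2 and 18.3 TPM in wild type, against 13.0, 15.1 and 15.7 TPM in the line. Its groups did not overlap, and PPCK1 did not pass either (log2 fold change -0.29, limma adjusted p = 0.0861).

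Among 16 tested regulators of phosphate signalling besides the SPX members, 2 fell. AT4, a transcript that sequesters miR399, stood at 38.3, 28.3 and 23.6 TPM in wild type, against 19.7, 19.8 and 14.0 TPM in the line (log2 fold change -0.71 ± 0.17 SE, limma adjusted p = 0.0235). It no longer passed without wild type replicate 2 or replicate 3 of the line (adjusted p = 0.0641 and 0.0831). IPS1, the related transcript known for its very strong induction, was listed at 0 in 4 of 6 libraries and at 0.585 TPM in the other two. ZAT6, a zinc finger factor known from phosphate homeostasis and also from cold and other stresses, fell from 24.4, 17.1 and 14.7 TPM to 8.56, 6.85 and 4.25 TPM (limma adjusted p = 0.00322).

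The other tested regulators did not pass the test. PHR1 had means of 55.3 ± 2.005 TPM in wild type and 50.2 ± 4.55 TPM in the line, with a log2 fold change of -0.14 and a 95% interval from -0.29 to 0.02. By deposited TPM the best expressed others were HHO2, a factor related to HRS1, at 78.9 and 82.1 TPM, and ITPK1, an inositol phosphate kinase, at 51.5 and 51.0 TPM. On exon length SIZ1, a SUMO ligase that acts on PHR1, stood above ITPK1, at 40.9 and 40.5 TPM against 39.1 and 38.9 TPM. SPX4, another SPX protein that restrains PHR1, had means of 14.3 ± 0.53 and 17.9 ± 2.98 TPM (limma adjusted p = 0.122) and passed only without replicate 3 of the line (adjusted p = 0.0465) among the 15 alternatives.

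**Figure D3:**
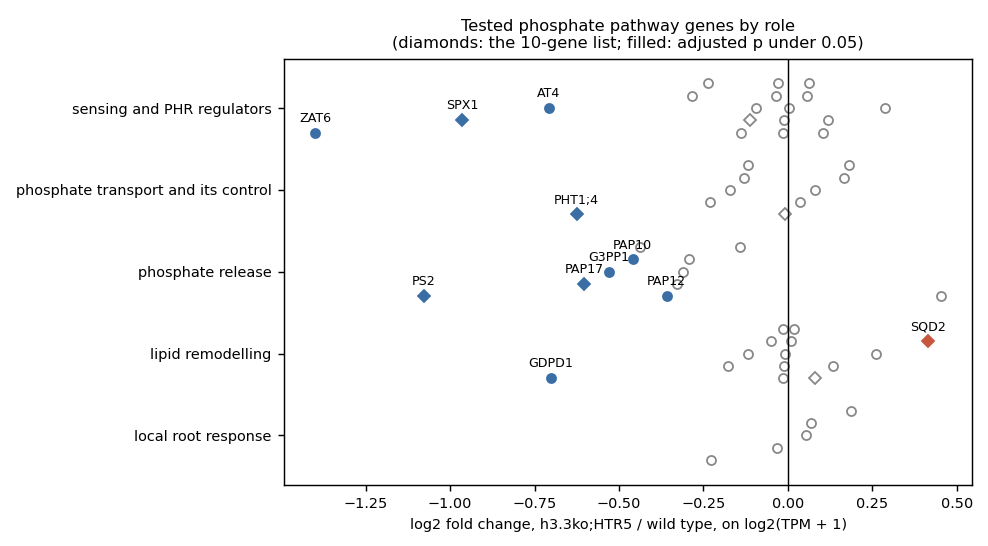
Log2 fold change between h3.3ko;HTR5 and wild type on log2(TPM + 1) (horizontal axis) for the tested genes of 5 phosphate lists, 1 row per list. Diamonds are the phosphate starvation genes described first and filled symbols passed the test, 10 of them left of 0 and SQD2 right of it.

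Besides the PHT1 members, none of 8 tested genes of phosphate transport and its control passed with limma, with 2 lower and 0 higher at an unadjusted p under 0.05 and 1 lower with voom, and their median log2 fold change was -0.04. PHT2;1, the chloroplast transporter, was at 476 ± 13.2 and 489 ± 18.0 TPM, and PHO2, the ubiquitin-conjugating enzyme that removes transporters, at 145 ± 12.7 and 153 ± 8.01 TPM. PHO1, which loads phosphate into the xylem, was at 49.7 ± 1.85 and 44.1 ± 2.73 TPM (limma adjusted p = 0.108, while voom gave 0.0354). The other 8 genes of this list, among them PHT1;2, PHT1;3 and PHT1;5 to PHT1;9, had mean levels under 1 TPM.

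Among 12 tested genes of lipid exchange besides SQD1 and SQD2, 1 fell and the median log2 fold change was -0.01. GDPD1, a glycerophosphodiester phosphodiesterase that acts in phospholipid breakdown, stood at 18.7, 14.5 and 14.1 TPM in wild type, against 8.75, 9.70 and 9.28 TPM in the line. The groups did not overlap (log2 fold change -0.70 ± 0.11 SE, limma adjusted p = 0.00312), and GDPD1 shares 681 bases with AT3G02030 on the other strand, which was at 3.38 to 4.02 TPM. UGP3, the plastid UDP-glucose pyrophosphorylase that supplies SQD1, was at 80.4 ± 5.56 and 79.5 ± 3.19 TPM (log2 interval -0.15 to 0.12). MGD1 and DGD1, the main galactolipid synthases, had means of 76.1 and 77.1 TPM and of 59.6 and 59.2 TPM. Of the enzymes of sulfolipid synthesis, SQD2 rose, while UGP3 and SQD1, which act before it, did not pass.

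Of 5 genes of the local root response to low phosphate none passed with limma or with voom, with 1 higher and 0 lower at an unadjusted p under 0.05, and the median log2 fold change was 0.05. STOP1, the factor that activates ALMT1, was at 60.8 ± 2.21 and 63.1 ± 0.88 TPM, and the malate channel gene ALMT1 at 36.3 ± 3.66 and 41.4 ± 0.45 TPM (limma adjusted p = 0.131, and 0.0357 without wild type replicate 3). PDR2 and LPR2 had means of 22.7 and 23.9 TPM and of 20.3 and 19.8 TPM.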

How the data were processed

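For 6 libraries the authors deposited TPM values in 1 table, with the same total in each column, and columns were matched to samples by name. Per the submitters' processing notes the TAIR10 build, fastp (0.20.1), HISAT2 (2.1.10) and DESeq2 (1.26.0) were used, and per the file's row names the gene models are Araport11. The counting tool and strand setting remain not given in the sources used here. Multiplied by the gene span with introns, the values of 22980 of 22985 expressed genes became whole read numbers within 0.02 reads. Positions and sequences are those of RefSeq TAIR10.1. Tests were fitted with limma 3.58.1 (R 4.3.3) to log2(TPM + 1), two-sided, over genes averaging at least 1 TPM. They used a trended variance prior and no replicate block, and were adjusted after Benjamini and Hochberg over all tested genes (threshold 0.05). The procedure was also tested on simulated counts, with the same spread setting for every gene and no library effects. No result here rests on that simulation. Reads of replicates varied beyond counting noise (chi-square over its degrees of freedom 2.13 to 3.91). In wild type, replicate 1 gave 3.91 with replicate 2 and 3.60 with replicate 3, against 2.13 between replicates 2 and 3. In the line the values were 2.19 to 2.77. Named are all members, list genes that passed, up to 4 best expressed genes per list and genes overlapping a member. Chosen after their values were seen were IPS1, SPX4, PPCK1, PPCK2, SIZ1, PHT1;2 and genes overlapping a list gene that passed. Members and lists were chosen with earlier results of these data known. The alternatives tried were another pseudocount, no filter, a replicate block, other scalings and lengths, voom, other variance priors and leaving out each library.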

Additional observations from a re-analysis of the deposited data

How the results depend on the processing

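Under all 15 alternatives 4 phosphate starvation genes were lower and 1 higher, and SPX1, PHT1;4, PAP17, PS2 and SQD2 each kept their direction and passed. The largest adjusted p over the alternatives was 0.0353 for SPX1, 0.0206 for PHT1;4, 0.0269 for PAP17, 0.037 for PS2 and 0.0482 for SQD2. The sign of PHT1;1, which never passed, turned to 0.0394 after quantile normalization and 0.0322 after median-of-ratios scaling, and ranged from -0.0714 to 0.026 with 1 library left out. Over all genes 2285 were called (703 higher, 1582 lower). An untrended variance prior gave 1443 (414 higher, 1029 lower), and leaving out 1 library 1289 to 2068 (354 to 753 higher, 935 to 1341 lower). The cause was not tested. Of the called genes 30.8% were higher as deposited, 46.4% after quantile normalization and 43.7% after median-of-ratios scaling. Of the other pathway genes 0 to 1 rose with 1 library left out and 4 to 8 fell over the alternatives. AT4 was also lost unfiltered (adjusted p = 0.0506), with a robust prior (adjusted p = 0.0771) and an untrended prior (adjusted p = 0.0829), PAP12 with an untrended prior (adjusted p = 0.0545), and PAP26 was gained with voom (adjusted p = 0.0405). Deviations of same-numbered libraries from their group means correlated at -0.04, 0.02 and -0.01 over all tested genes. Such a correlation over all genes cannot decide whether the numbers pair the libraries for single genes. With a replicate block the limma adjusted p fell for AT4 (0.0235 to 0.00164) and rose for PHT1;4 (0.00521 to 0.0113). A replicate block gave 1851 calls and the same counts of members, and libraries did not all correlate best with their own number.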
